A study of Mus musculus with 9 samples.

Results

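The insulin-like growth factor (IGF) axis was followed through 10 genes, the ligands Igf1 and Igf2, the receptors Igf1r and Igf2r, and the binding proteins Igfbp2, Igfbp3, Igfbp4, Igfbp5, Igfbp6 and Igfbp7. The genes were chosen by symbol and not by level, out of 30406 gene identifiers shared by all 9 libraries, and each of the 10 was listed in every library. The libraries were 3′ single-cell RNA libraries of mouse embryonic fibroblast (MEF) cultures that were being turned into induced neurons by lentiviral transcription factors. Wild-type (WT), Per1-/- and Per2-/- cultures were each sampled on days 4, 7 and 10, with 1 library for each genotype and day. All of them, WT included, carried these lentiviruses, the doxycycline that switched these on, and N3 medium, which contains insulin, and days were counted from the change to that medium. The Per1-/- cells carried the tm1Drw allele of Per1 and the Per2-/- cells the tm1Drw allele of Per2. MEFs came from pooled mid-gestation embryos of undetermined sex without head and heart, so each library is a mixed culture in which cells that did not become neurons remained.

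IGF1 and IGF2 are small secreted hormones related to insulin that promote growth and survival through the receptor tyrosine kinase IGF1R, which signals through IRS adaptors, PI3 kinase and AKT. IGF2R, the cation-independent mannose 6-phosphate receptor, takes up IGF2 and delivers it to lysosomes, while the binding proteins hold the ligands outside cells until proteases release them. Igf2 is an imprinted gene next to H19, with high expression in embryonic mesenchyme and a fall after birth, and macrophages are a known source of IGF1 in muscle and brain.

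Several IGF binding proteins share an amino-terminal cysteine signature, glycine-cysteine-glycine-cysteine-cysteine, any pair of residues, then cysteine. The coding stretch that encodes it was read from GRCm38 (GENCODE annotation) for each member that has it, because its exact form was absent from Igfbp6 and Igfbp7. Capitals mark the codons of the 6 fixed residues and lower case the codons between them.
Igfbp2: GGCTGCGGCTGCTGCtccgtgTGC
Igfbp3: GGCTGCGGCTGCTGCctgactTGC
Igfbp4: GGCTGCGGTTGTTGCgccactTGC
Igfbp5: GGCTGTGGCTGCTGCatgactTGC
Each stretch lay within a single coding exon, at chr1:72824778-72824801 (plus strand) for Igfbp2, chr11:7213566-7213589 (minus strand) for Igfbp3, chr11:99041650-99041673 (plus strand) for Igfbp4 and chr1:72873966-72873989 (minus strand) for Igfbp5. The coding sequences of Igfbp6 and Igfbp7 held 0 exact matches, and near matches are not given. They had 16 and 19 cysteine codons against 18 to 20 in the other 4 members, a range that holds the Igfbp7 count. IGFBP6 is known for preferring IGF2 over IGF1, and IGFBP7 for weak IGF binding.

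On GRCm38 the ligand genes lay at chr10:87858265-87937042 (Igf1, ENSMUSG00000020053, plus strand) and chr7:142650766-142666816 (Igf2, ENSMUSG00000048583, minus strand). The receptor genes lay at chr7:67952827-68233668 (Igf1r, plus strand) and chr17:12682406-12769664 (Igf2r, minus strand). Igfbp2 and Igfbp5 were neighbours on chromosome 1 in opposite orientation, at chr1:72824503-72852474 and chr1:72857932-72874884. The other binding protein genes lay at chr11:7206086-7213923 (Igfbp3), chr11:99041244-99054392 (Igfbp4), chr15:102144362-102149511 (Igfbp6) and chr5:77349240-77408041 (Igfbp7). Airn is transcribed antisense to Igf2r and Igf2os antisense to Igf2, and Igf2os was counted as a gene of its own, at 0.549 to 1.17 CPM over all kept cells (counts per 1000000 UMI of the cells summed).

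The libraries held 95603 barcodes with 126625215 to 353198559 unique molecular identifiers (UMI) each, and 74835 cells were kept, 6047 to 10663 per library. The WT day 10 library stood apart in depth, since 55.4% of its barcodes passed the filter on cells against 86.1% to 94.5% elsewhere and its passing cells had a median of 11514 UMI against 17139.5 to 28744. Xist was at 0.0674 and 0.0594 CPM in the Per1-/- libraries of days 7 and 10 and at 347 to 996 CPM in the other 7, and Ddx3y was at 93.9 and 94.1 against 21.9 to 52.0 CPM, so sex composition differed between Per1-/- of days 7 and 10 and all other libraries, Per1-/- day 4 included. Per1 was at 9.14, 9.49 and 10.3 CPM in the Per1-/- libraries against 6.34 to 7.89 in WT, and Per2 at 4.97 to 6.39 in Per2-/- against 2.58 to 2.99 in WT, and counts at the 3′ end do not check these alleles. Libraries shared at most 0.424% of barcodes with each other. The cells fell into 24 clusters, and 16 of them were named from their markers as 1 of 7 classes, here called fibroblast-like (38713 cells), neuron-like (7441), macrophage-like (6451), skeletal muscle-like (3071), Schwann-like (2884), astrocyte-like (1148) and mesothelial-like (537). The other 14590 cells were left unnamed, among them clusters 14 (Wfdc17, Fcer1g and Cyth4) and 18 (Snhg11, Nrxn3 and Htr2b), which carried macrophage and neuron markers but in which 60.1% and 60.5% of cells were called doublets. IGF axis genes were kept out of the genes used for clustering, but the classes come from the same cells, so differences between classes are descriptions with no test.

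Igf1 was highest in macrophage-like cells. Summed over the macrophage-like cells of a library, it stood at 669, 674 and 750.4 CPM on day 4 (WT, Per1-/- and Per2-/-), at 664, 545 and 697 on day 7 and at 613, 523 and 612 on day 10. Every one of these 9 values was above every value in fibroblast-like cells, which ranged from 86.7 to 297 CPM with a median of 159, and the macrophage-like level was 438% of the fibroblast-like one at the median over libraries (176% to 865%). With each cell thinned to 3000 UMI, 76.8% of macrophage-like cells held an Igf1 UMI at the median of the libraries, against 23.2% of fibroblast-like and 1.02% of neuron-like cells, and as counted the shares were 98.5%, 49.4% and 4.08% at median depths of 22069.5, 22453 and 11740 UMI per cell. Mesothelial-like cells followed with a median of 125 CPM, skeletal muscle-like with 63.0, astrocyte-like with 21.8, Schwann-like with 16 and neuron-like with 4.86, and in this order only the step from macrophage-like to fibroblast-like had ranges that did not overlap. CPM in 3′ libraries count transcripts and do not scale with transcript length, and the counting error behind these sums was small: the 95% Poisson interval of Igf1 in WT day 4 macrophage-like cells, from 142 cells, was 643 to 695 CPM. Intervals of this kind cover counting error only.

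Igf2 could be compared between classes within a day and between days 4 and 7, but not between day 10 and the earlier days. Over all kept cells it was at 27.6 to 62.9 CPM in the 6 libraries of days 4 and 7 and at 705 (WT), 1087 (Per1-/-) and 374 CPM (Per2-/-) on day 10. The lowest day 10 value was 5.94 times the highest of the earlier days. The neighbouring imprinted RNA H19 was at 826 to 1203 CPM on days 4 and 7 and at 645 to 1082 on day 10. The feature table behind days 4 and 7 lists Gm49394 (chr7:142650769-142669942, minus strand), which covers 3284 of the 3287 bases of the last exon of Igf2 (chr7:142650766-142654052) and 62.8% of all its exon bases, and the table behind day 10 does not list it. Gm49394 itself was counted with 0 to 2 UMI in each library of days 4 and 7. The day and the feature table cannot be told apart for Igf2, so it was left out of counts that set day 10 against day 7.

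**Figure D1:**
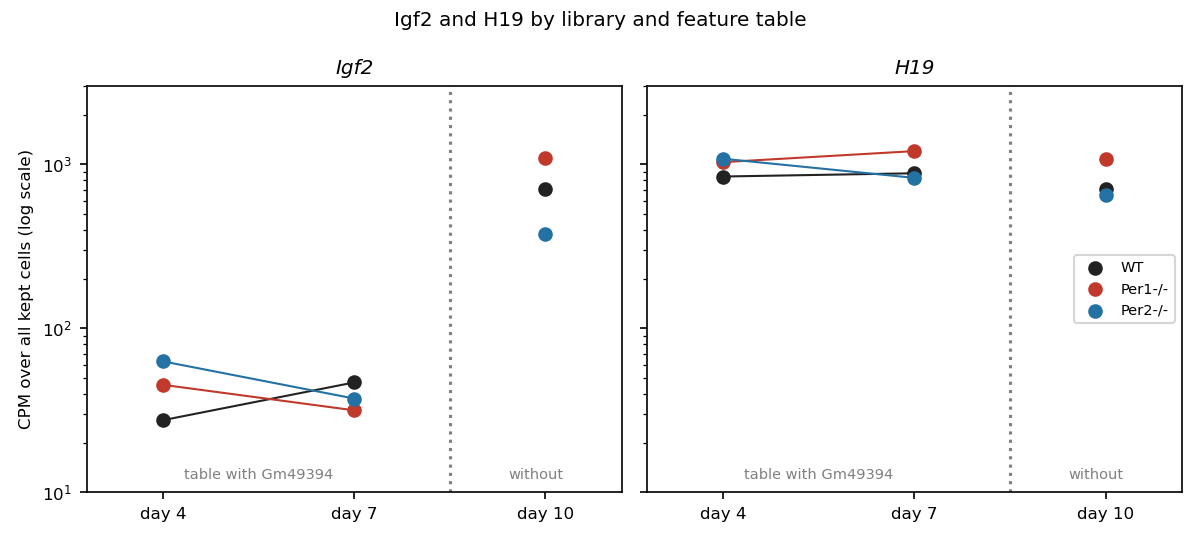
Igf2 (left) and H19 (right) in CPM over all kept cells of a library, on a log axis, by day and genotype, with the dotted line between the libraries counted with a feature table that lists Gm49394 and those without it. Each point is 1 library and no error is drawn; Igf2 lies between 27.6 and 62.9 CPM left of the line and between 374 and 1087 right of it, while H19 lies between 645 and 1203 CPM on both sides.

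Within day 10, Igf2 was highest in fibroblast-like cells, at 875 CPM in WT (95% Poisson interval 868 to 883), 1619.5 in Per1-/- (1611 to 1628) and 472 in Per2-/- (466 to 477). The 3 values did not overlap those of any other class. Mesothelial-like cells followed with a median of 304 CPM. In skeletal muscle-like cells the 3 genotypes lay close together at 247, 230.1 and 251 CPM. Neuron-like cells were at 29.5, 14.8 and 21.9 CPM and macrophage-like cells at 19.8, 15.1 and 18.9. Schwann-like cells were at 36.1 and 24.3 CPM in Per1-/- and Per2-/- and at 255 in the WT day 10 library, the shallow one. Astrocyte-like cells were at 265 CPM in WT, 124 in Per1-/- (19 cells) and 24.6 in Per2-/-. On days 4 and 7 fibroblast-like, mesothelial-like, skeletal muscle-like and astrocyte-like cells had the highest medians in the same order as on day 10, with a fibroblast-like median of 51.2 CPM (34.8 to 77.0) and a macrophage-like median of 1.02.

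Free RNA in droplets gives cells some counts of genes that they do not express, and the level of 19 fibroblast markers served as a yardstick for it. Their summed level in neuron-like cells was 3.55% of the fibroblast-like level at the median (1.496% to 5.18%) and in macrophage-like cells 1.99% (0.676% to 2.54%), with none of the 19 at 0. In neuron-like cells Igf1 stood at 2.63% of its fibroblast-like level, Igf2 at 3.69%, Igfbp3 at 4.40%, Igfbp4 at 3.55% and Igfbp7 at 3.84%, all within the range of the yardstick and read as background. Igfbp2 at 7.81%, Igf2r at 18.9%, Igfbp6 at 22.6%, Igfbp5 at 82.1% and Igf1r at 143% were above it. The yardstick covers free RNA from fibroblast-like cells alone. Over all kept cells of WT day 7 Igfbp2 was at 244 CPM against 143 in fibroblast-like cells. Igf1 in Per2-/- day 7 was at 237 CPM against 159. Free RNA from other cells can lift such genes above the range, so Igfbp2 at 7.81% cannot be told apart from background. In macrophage-like cells Igf2 (2.26%), Igfbp3 (2.07%) and Igfbp7 (2.50%) were within the range, Igfbp5 (3.29%), Igfbp6 (3.27%) and Igfbp2 (3.59%) slightly above it, and Igf1r (16.4%), Igfbp4 (36.7%), Igf2r (37.0%) and Igf1 well above it.

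**Figure D2:**
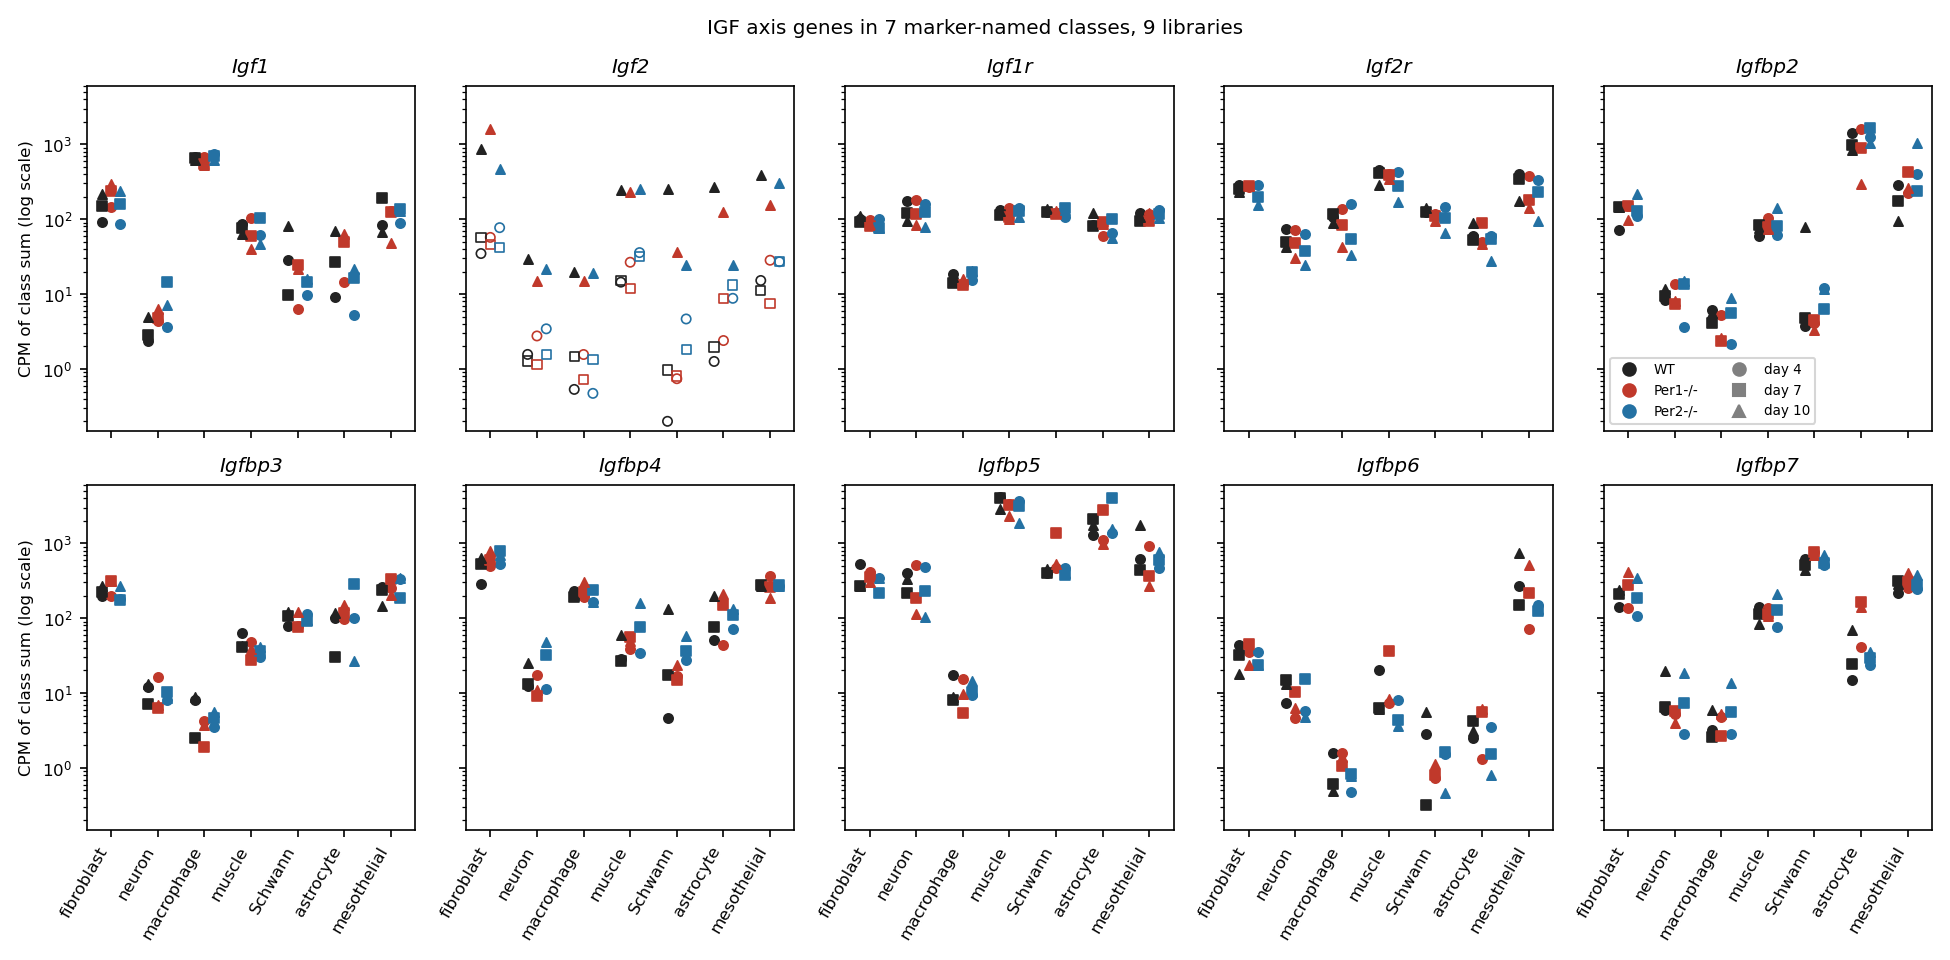
CPM of the 10 IGF axis genes (log axis) in the summed cells of 7 classes, 1 point per library, with colour for genotype and shape for day; open symbols are Igf2 on days 4 and 7, and the single level of 0 (Igf2, Schwann-like cells, WT day 4) is drawn at the foot of its panel. Igf1 peaks in macrophage-like cells at 523 to 750.4 CPM, Igf2 on day 10 in fibroblast-like cells, Igfbp5 in skeletal muscle-like cells at 1884 to 4129.8, Igfbp7 in Schwann-like cells at 439 to 770.2, and Igf1r is low in macrophage-like cells alone, at 13.4 to 20.6 CPM.

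The signalling receptor Igf1r was spread evenly, with macrophage-like cells as the exception. Medians over the 9 libraries were 130.3 CPM in skeletal muscle-like, 124 in Schwann-like, 122 in neuron-like, 116 in mesothelial-like, 93.1 in fibroblast-like and 82.9 in astrocyte-like cells, and neighbours in this order overlapped. Macrophage-like cells had 15.7 CPM (13.4 to 20.6), with a highest library below the lowest of any other class. The class with the most Igf1 thus had the least Igf1r. Neuron-like cells exceeded fibroblast-like cells of the same library in 8 of 9 libraries, but not clearly on day 10. There they stood at 84.8 against 83.8 CPM in Per1-/-, 77.6 against 76.2 in Per2-/- and, reversed, 95.3 against 111 in WT. With cells thinned to 3000 UMI, 31.1% of neuron-like cells held an Igf1r UMI against 22.7% of fibroblast-like and 4.30% of macrophage-like cells (as counted 70.0%, 76.4% and 25.5%).

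Igf2r, the uptake receptor for IGF2, was highest in skeletal muscle-like cells at a median of 393 CPM (169 to 449.8), ahead of fibroblast-like cells of the same library in 9 of 9 libraries. Fibroblast-like cells had a median of 270.1 CPM, mesothelial-like 233, Schwann-like 117, macrophage-like 88.2, astrocyte-like 54.8 and neuron-like 47.7. The ranges of all neighbours in this order overlapped. The Per2-/- day 10 library was the lowest of the 9 in each of the 7 classes, from 24.3 CPM in neuron-like to 169 in skeletal muscle-like cells.

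Compared across classes, the binding proteins had their highest medians in 5 of the 7. Igfbp5, which is induced as myoblasts differentiate, was the most abundant member by UMI in skeletal muscle-like cells at 3265 CPM (1884 to 4129.8), and in thinned cells 70.9% held a UMI there. Astrocyte-like cells had 1559 CPM of Igfbp5 (985 to 4074), and the other classes ran from 605 in mesothelial-like to 231 in neuron-like cells, with macrophage-like cells apart at 9.80. Igfbp2, a binding protein of brain and liver, had its own highest median in astrocyte-like cells, below that of Igfbp5 there, at 1047 CPM (299 to 1639.9, the lowest from 19 Per1-/- day 10 cells and the next 827), more than in fibroblast-like cells of the same library in 9 of 9 libraries, where its median was 143. Igfbp7, a matrix and vessel-wall protein, was highest in Schwann-like cells at 612 CPM (439 to 770.2), above the ranges of all other classes, and 73.1% of thinned Schwann-like cells held a UMI.

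Igfbp4, an inhibitory binding protein cleaved by PAPP-A, was highest in fibroblast-like cells at 590.0 CPM (288 to 799) and was at 206 CPM (162 to 306) in macrophage-like cells, the class in which most other binding proteins were near background. Igfbp3, the main carrier of IGFs in serum, was similar in mesothelial-like (256 CPM) and fibroblast-like cells (220.1 CPM, 174 to 316), lower in astrocyte-like (102) and Schwann-like (93.3) and 40.6 in skeletal muscle-like cells. Igfbp6 was highest in mesothelial-like cells, the lining cells of body cavities, at 149.6 CPM (70.8 to 734), above fibroblast-like cells at 32.1 (18.1 to 45.5) with no overlap, and its median was 7.32 or lower in the other 5 classes. Mesothelial-like sums rest on 537 cells in all, with 15 to 112 in a library.

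Set side by side on day 10, when Igf2 was counted without Gm49394, the classes differed in which ligand and which binding protein they held. Igf2 made up 66.6% to 84.5% of ligand UMI in fibroblast-like cells and 2.80% to 3.13% in macrophage-like cells. Of the UMI of the 6 binding proteins, Igfbp4 took 36.6% to 40.7% in fibroblast-like and 78.8% to 93.1% in macrophage-like cells, the largest share in both. Igfbp5 took 77.2% to 91.5% in skeletal muscle-like and 52.3% to 80.2% in neuron-like cells. These shares are of counts and not of protein.

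Fibroblast-like cells were not uniform in these genes. Of their 8 clusters, cluster 3, led by Steap4, Ebf2 and Adh1, had the most ligand, with a median of 345 CPM of Igf1 over 9 libraries and 1729 CPM of Igf2 on day 10. Cluster 2 (Slc14a1, Tnn and Grem1) had the least Igf1 at 51.8 CPM, and cluster 8 (Pmch, Otor and Tac1) the least Igf2 at 349. Igfbp5 ranged from 93.6 CPM in cluster 2 to 1926 in cluster 10 (Sv2b, Wnt4 and Syt13), and Igfbp4 from 152 in cluster 8 to 1089.8 in cluster 5 (Adamts3, Fxyd7 and Eln). Igfbp3 ran from 67.3 CPM in cluster 8 to 402 in cluster 1 (with C1qtnf3 and Flt1 among its leading genes), and Igfbp2 from 63.4 to 263, the latter in cluster 15 (Alx1, Cyp26b1 and Dlx6). The receptors varied less, Igf1r from 71.0 to 143 CPM and Igf2r from 178 to 375, both highest in cluster 10.

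**Figure D3:**
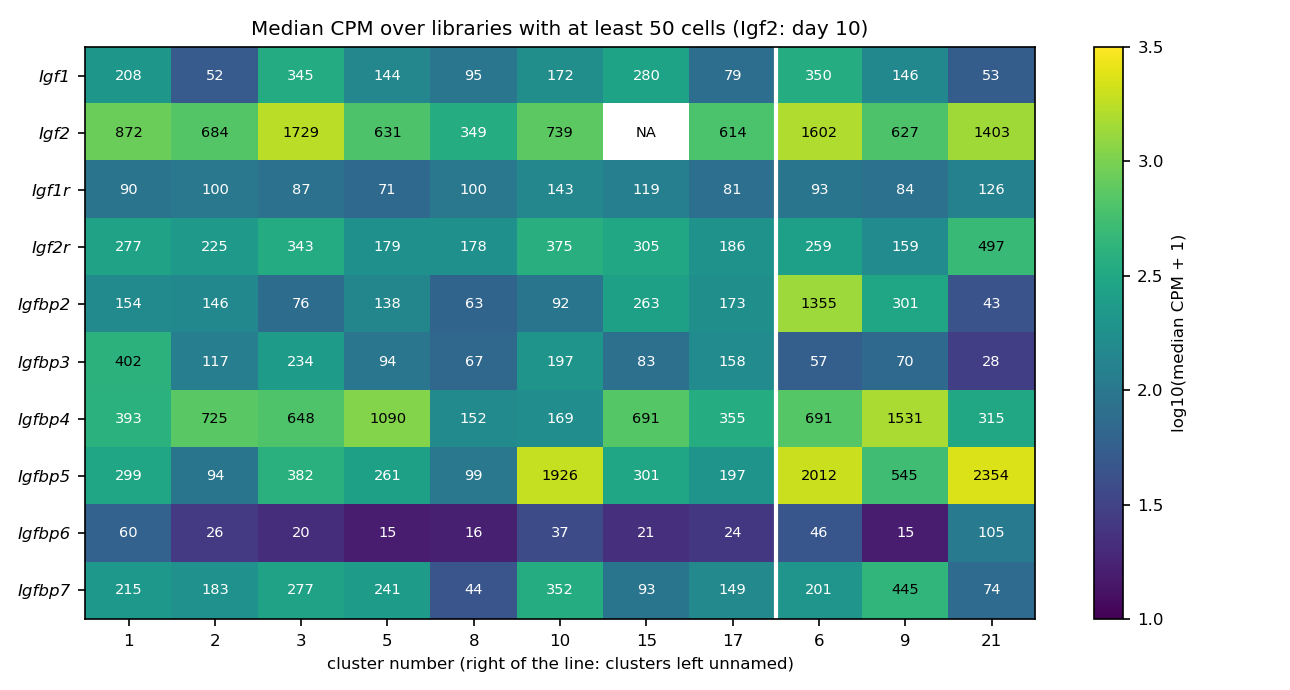
Median CPM of each IGF axis gene in the 8 fibroblast-like clusters and in 3 unnamed clusters with fibroblast markers (right of the white line), over libraries with at least 50 cells in the cluster and for Igf2 over day 10 libraries; colour is log10 of the median plus 1 and the printed numbers are the medians. Among the 8 fibroblast-like clusters Igfbp5 runs from 93.6 CPM in cluster 2 to 1926 in cluster 10, Igf1 from 51.8 in cluster 2 to 345 in cluster 3, and Igf1r only from 71.0 to 143; NA marks cluster 15, with no day 10 library of 50 cells.

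The make-up of the fibroblast-like class also differed between libraries, and this stands beside every comparison of its sums. The largest cluster was cluster 1 in WT on days 4 and 7 (33.7% and 35.1% of fibroblast-like cells), cluster 2 in WT day 10 (23.5%) and in both mutants on day 4 (26.9% and 30.7%), cluster 3 in Per1-/- on days 7 and 10 (43.8% and 72.7%), and clusters 5 (40.6%) and 10 (23.4%) in Per2-/- on days 7 and 10. Igf2 on day 10 was therefore also read within clusters. In cluster 3 it stood at 1729 CPM in WT, 1926 in Per1-/- and 828 in Per2-/-, in cluster 1 at 872, 1005.9 and 449.7, and in cluster 2 at 706, 684 and 304. Per2-/- was the lowest of the day 10 libraries in each of these clusters, and in cluster 5 it was at 376 CPM against 885 in WT, while Per1-/- was above WT in clusters 1 and 3 and below it in cluster 2. With 1 library for each genotype these day 10 differences have no replicate check.

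Whether genotype changed the IGF axis was tested in 4 classes with edgeR's quasi-likelihood test on the summed counts of a class, with days as repeats of a genotype and genotypes as repeats of a day. As each genotype and day has 1 library, p-values measure the spread between those libraries, and a difference on 1 day alone cannot be tested. The Per1-/- libraries of days 7 and 10 also differed from all others in sex composition. On those days Per1-/- and sex therefore cannot be told apart. Adjusted p-values are Benjamini-Hochberg values over all genes tested in a comparison, and a gene was called at 0.05. None of the 10 members was called between genotypes in any class. In fibroblast-like sums 0 of 10 were called in each of the 3 pairs of genotypes (the mutants each set against WT, then Per1-/- set against Per2-/-), where 0% of all genes tested were called, with 2, 2 and 3 members at an unadjusted p under 0.05 (10.1%, 7.65% and 13.2% of all genes), 1 called by DESeq2 in each (1.98%, 0.747% and 2.32% of all genes) and 0 by limma-voom. In neuron-like sums 0 of 10 were called against 0.0140%, 0.0419% and 0.00699% of all genes, with 2, 3 and 2 members at an unadjusted p under 0.05 (4.43%, 5.43% and 6.45% of all genes) and 0 called by DESeq2 or limma-voom. In macrophage-like sums 0 of 10 were called against 0.00780%, 0% and 0.195% of all genes, with 1, 1 and 5 members at an unadjusted p under 0.05 (9.50%, 17.1% and 18.9% of all genes) and 0 called by DESeq2 or limma-voom. In skeletal muscle-like sums 0 of 10 were called against 0%, 0.348% and 0.333% of all genes, with 0, 4 and 3 members at an unadjusted p under 0.05 (5.75%, 11.4% and 12.5% of all genes), 0, 1 and 0 called by DESeq2 (0.148%, 0.926% and 1.54% of all genes) and 0 by limma-voom.

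Among the members, Igf1 in fibroblast-like sums came nearest for Per1-/- against WT. It was higher in Per1-/- than in WT on each of the 3 days, at 146 against 91.1 CPM on day 4, 236 against 151 on day 7 and 297 against 218 on day 10, a log2 fold of 0.66 ± 0.09 (SE) with an edgeR adjusted p of 0.222. DESeq2 called it (adjusted p 4.20e-06), and edgeR called it without the Per1-/- day 4 library (log2 fold 0.60, adjusted p 0.0393). Cluster 3, the cluster with the most Igf1, was also the largest in the Per1-/- libraries of days 7 and 10. Within it, Igf1 was at 562 CPM in Per1-/- (115 cells) and 317 in WT (71 cells) on day 4. There it was at 303 against 323 CPM on day 7 and 344 against 466 on day 10. Within cluster 1 it was at 185 against 139, 208 against 214 and 197 against 293 CPM. In both clusters Per1-/- was thus above WT on day 4 and below it on days 7 and 10, unlike the class sums, but the day 7 values were close. Cluster 2 gave 52.8 against 19.8 CPM on day 4 and 57.5 against 64.8 on day 10, and cluster 5 189 against 134 on day 4 and, in 83 Per1-/- cells, 472 against 103 on day 7. These values within clusters have no test, and on days 7 and 10 the Per1-/- library also differed from WT in sex composition.

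For Igf2 the day of sampling is a term of the fit, so genotypes are compared within a feature table. In fibroblast-like sums the log2 fold was 0.51 ± 0.42 for Per1-/- against WT (edgeR adjusted p 0.728), 0.07 ± 0.43 (0.974) when Per2-/- was set against WT and 0.45 ± 0.43 (0.673) when Per1-/- was set against Per2-/-, with the order of genotypes differing between days: Per2-/- was highest on day 4 at 77.0 CPM, WT on day 7 at 56.5 and Per1-/- on day 10. In neuron-like sums the folds were -0.21 ± 0.32, 0.17 ± 0.29 and -0.38 ± 0.31 in the same order of contrasts (edgeR adjusted p 0.9999, 0.984 and 0.889), at a median level within the background range. In macrophage-like sums they were -0.24 ± 0.30, 0.03 ± 0.31 and -0.27 ± 0.28 (edgeR adjusted p 0.855, 0.970 and 0.647), also at background. In skeletal muscle-like sums they were 0.18 ± 0.24, 0.77 ± 0.24 and -0.58 ± 0.24 (edgeR adjusted p 0.997, 0.280 and 0.356). There Per2-/- exceeded WT on each of the 3 days, at 35.8 against 14.4, 31.6 against 15.2 and 251 against 247 CPM, and DESeq2 called that difference (log2 fold 0.78, adjusted p 0.0486).

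Of the members that edgeR called between days in class sums, all but Igf1 in fibroblast-like sums were called in neuron-like sums. From day 4 to day 7, Igf1r fell in neuron-like sums from 174, 180.0 and 158 CPM (WT, Per1-/- and Per2-/-) to 122, 116 and 123, a log2 fold of -0.52 ± 0.08 (edgeR adjusted p 0.00110). Igf2r fell from 73.4, 71.6 and 63.0 to 49.4, 47.7 and 37.6 CPM, a log2 fold of -0.66 ± 0.11 (edgeR adjusted p 0.00139). Igfbp5 fell from 399, 516 and 486 to 219.5, 185 and 231 CPM, a log2 fold of -1.19 ± 0.30 (edgeR adjusted p 0.0141). In each of these genes the 3 day 7 values lay below the 3 day 4 values. Igfbp6 rose from 7.28, 4.68 and 5.70 to 14.9, 10.3 and 15.4 CPM, a log2 fold of 1.21 ± 0.22 (edgeR adjusted p 0.00240), again with no overlap. Igf1 also rose, from 2.39, 4.44 and 3.67 to 2.82, 4.86 and 14.4 CPM, a log2 fold of 0.99 ± 0.32 (edgeR adjusted p 0.0463), with the Per2-/- day 7 value, 9.07% of the fibroblast-like level of its library, above the range of the fibroblast-marker yardstick. Without that library the log2 fold was 0.20 (adjusted p 0.690), and the call was lost in 6 of 9 cases with 1 library left out and in 5 of 10 other settings, DESeq2 (0.0869) and doublets kept (0.57, 0.264) among them. In all 5 of 10 members were called, 2 higher and 3 lower, in a comparison in which 23.7% of all genes tested were called, 12.3% higher and 11.4% lower. The falls of Igf1r and Igf2r and the rise of Igfbp6 were called without any 1 of the 9 libraries. The Igfbp5 call was lost without the Per1-/- or Per2-/- library of day 4 (log2 folds -0.93 and -1.04, adjusted p 0.0665 and 0.0736), without the WT or Per1-/- library of day 7 (-1.02 and -1.18, 0.0712 and 0.0585) and under DESeq2 (-1.18, 0.0581).

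From day 7 to day 10 in neuron-like sums, edgeR called 3 of 9 members, all lower, against 11.9% of all genes tested, 5.22% lower. All day 10 libraries were counted with another feature table than those of day 7, and their headers name another Cell Ranger version. In this step day and counting therefore cannot be told apart for any gene or class. Igf1r fell further, to 95.3, 84.8 and 77.6 CPM, a log2 fold of -0.41 ± 0.09 (edgeR adjusted p 0.0113), with no overlap between the days. Igf2r fell to 42.5, 30.01 and 24.3 CPM, a log2 fold of -0.42 ± 0.12 (edgeR adjusted p 0.0399), in 3 of 3 genotypes but with overlapping ranges. Igfbp6 fell back to 13.1, 6.25 and 4.73 CPM, a log2 fold of -0.85 ± 0.25 (edgeR adjusted p 0.0463). Igfbp5 stood at 335 CPM in WT and at 114 and 105 in the mutants on day 10, and the WT value rests on 182 cells. Its log2 fold was -0.25 ± 0.30 (edgeR adjusted p 0.627), and without the WT day 10 library -0.90 (0.00348), a call. Leaving out 1 library ended the Igf1r call in 3 of 9 cases (highest adjusted p 0.0654, without Per2-/- day 7, log2 fold -0.35), the Igf2r call in 6 and the Igfbp6 call in 7. DESeq2 called neither Igf2r (adjusted p 0.0599) nor Igfbp6 (0.0546), and the Igf2r call was also lost with doublets kept (0.0613) and at Leiden resolution 2 (log2 fold -0.29, adjusted p 0.143). Among the fits with 1 library left out, the highest adjusted p of Igf2r and Igfbp6 came without the Per2-/- day 10 library (0.201 and 0.355, log2 folds of -0.32 and -0.39). Igfbp7 stood at 6.46, 5.71 and 7.46 CPM on day 7 and at 19.7, 4.001 and 18.7 on day 10, higher in 2 of 3 genotypes, with a log2 fold of 1.25 ± 0.39 (edgeR adjusted p 0.0595). Its median over libraries was read above as background. Relative to the fibroblast-like level of the same library, the day 10 values of WT and Per2-/- were above the background range. Igfbp7 was called higher by DESeq2 (1.13, adjusted p 0.0334) and by limma-voom (1.29, 0.0476). With edgeR it was called higher at Leiden resolution 2 (1.498, 0.0149), with doublets kept (1.64, 0.0304) and without a filter on low counts (1.28, 0.0384). It was also called higher by edgeR without Per1-/- day 10 (1.62, 0.00620), Per1-/- day 4 (1.27, 0.0269) or Per2-/- day 4 (1.22, 0.0306). The calls were thus all lower under the reported settings and not under these.

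The neuron-like class changed in make-up over the same days. It consisted of cluster 7 (Miat, Lhx3 and Brsk2) and cluster 16 (Snhg11, Stmn3 and Caly), and cluster 16 made up 1.91%, 3.82% and 4.74% of it on day 4 (WT, Per1-/- and Per2-/-), 58.0%, 50.2% and 78.3% on day 7 and 91.8%, 84.4% and 92.6% on day 10. Median levels differed between the clusters in the direction of the changes from day 4 to day 7, with Igf1r at 162 CPM in cluster 7 and 105 in cluster 16, Igf2r at 65.2 and 36.0, Igfbp5 at 515 and 94.5, and Igfbp6 at 3.73 and 18.5. These medians cover unlike libraries, so day and cluster are mixed in them. With under 50 cells, WT and Per1-/- of day 10 were left out for cluster 7 and WT of day 4 for cluster 16. From day 7 to day 10 Igfbp6 fell while cluster 16, the cluster with more of it, grew. Within cluster 7 alone, days 4 and 7, the log2 folds were -0.21 ± 0.11 for Igf1r, -0.33 ± 0.12 for Igf2r, -0.11 ± 0.17 for Igfbp5 and -0.81 ± 0.36 for Igfbp6, with edgeR adjusted p-values of 0.319, 0.171, 0.786 and 0.266, and 1 of 10 members was called (Igf1, 1.91 ± 0.43, adjusted p 0.0348) against 3.78% of all genes. Igf1 in cluster 7 had a median of 4.48 CPM over 7 libraries with a range of 2.37 to 35.7. This fit was not repeated with a library left out. Within cluster 16 alone, days 7 and 10, Igf1r changed by -0.33 ± 0.10 (edgeR adjusted p 0.0956) and Igf2r by -0.25 ± 0.14 (0.320), Igfbp6 fell by 1.24 on the log2 scale (SE 0.24, adjusted p 0.0103) and Igfbp4, with a class median read as background, rose by 0.91 ± 0.17 (0.0100), 2 of 9 members against 4.56% of all genes. Within cluster 7, then, the only cluster fitted for days 4 and 7 in this class, the differences were smaller than in the class for Igf1r, Igf2r and Igfbp5 and had the other sign for Igfbp6.

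**Figure D4:**
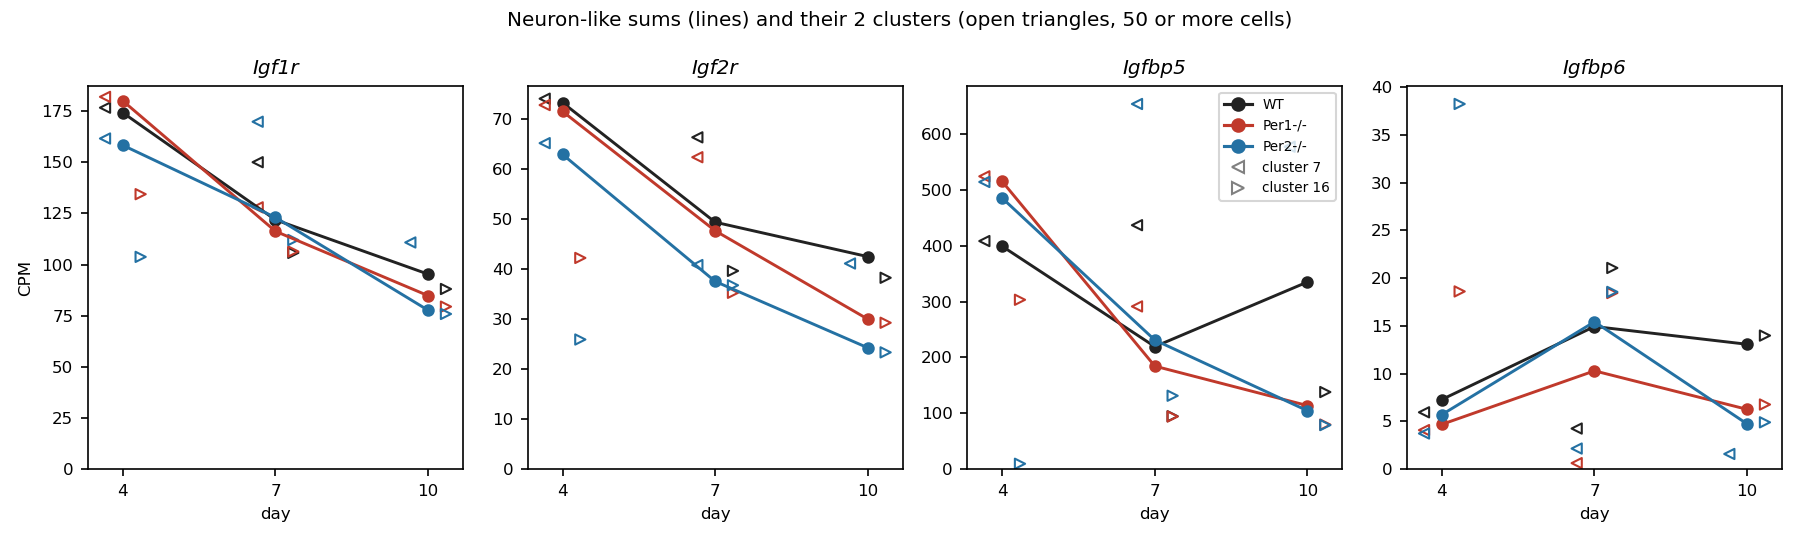
CPM of Igf1r, Igf2r, Igfbp5 and Igfbp6 (linear axes from 0) in neuron-like sums by day, 1 filled point per library with lines joining a genotype, and in the 2 clusters of the class with at least 50 cells (open triangles pointing left for cluster 7 and right for cluster 16). The lines of Igf1r and Igf2r fall over the days while cluster 7 lies above cluster 16 on days 4 and 7, and Igfbp6 lies higher in cluster 16, at a median of 18.5 CPM against 3.73.

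In fibroblast-like sums 1 of 10 members was called from day 4 to day 7, against 3.61% of all genes tested (1.69% higher). It was Igf1, which rose from 91.1, 146 and 86.7 to 151, 236 and 159 CPM, a log2 fold of 0.76 ± 0.09 (edgeR adjusted p 0.0116), with every day 7 value above every day 4 value. From day 7 to day 10 it was higher again in 3 of 3 genotypes, at 218, 297 and 236 CPM, with a log2 fold of 0.46 ± 0.09 that was not called (edgeR adjusted p 0.0804). Of the binding proteins, Igfbp7 went from 141, 135 and 108 CPM (day 4) through 209, 278 and 187 (day 7) to 237, 414 and 343 (day 10), and its log2 folds of 0.78 ± 0.20 and 0.54 ± 0.20 were not called (edgeR adjusted p 0.0776 and 0.383). From day 4 to day 7 DESeq2 called 4 of 10 members and 9.53% of all genes against 1 member by edgeR, Igfbp7 among the 4 (0.77, adjusted p 0.00245), and edgeR called Igfbp7 without the WT day 4 (1.02, 0.0470) or WT day 10 library (0.79, 0.0263). From day 7 to day 10 edgeR called 0 of 9 members against 1.25% of all genes, with 3 at an unadjusted p under 0.05 (10.7% of all genes), 1 called by DESeq2 (Igf1, against 2.45% of all genes) and 0 by limma-voom. The day 7 call of Igf1 was lost without the WT, Per1-/- or Per2-/- day 7 library (log2 folds 0.75, 0.73 and 0.77, adjusted p 0.0611, 0.0762 and 0.0708), at Leiden resolution 2 (0.38, 0.111) and with only the contrast's factor in the fit (0.75, 0.171). Within cluster 1 alone, days 4 and 7, the log2 fold of Igf1 was 0.62 ± 0.15 (edgeR adjusted p 0.0573), while Igfbp2 (1.42 ± 0.11, 0.00452) and Igfbp4 (1.10 ± 0.06, 0.00230) rose and Igfbp5 fell (-0.77 ± 0.13, 0.0222), 3 of 10 members against 9.51% of all genes.

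In macrophage-like and skeletal muscle-like sums edgeR called no member between days. In macrophage-like sums edgeR called 0 of 10 from day 4 to day 7 against 0.671% of all genes and 0 of 9 from day 7 to day 10 against 1.29%, with 2 members at an unadjusted p under 0.05 in each (21.5% and 9.79% of all genes) and 0 called by DESeq2 or limma-voom. Igf1 moved little there, with log2 folds of -0.10 ± 0.09 in both steps. In skeletal muscle-like sums edgeR called 0 of 10 against 2.18% and 0 of 9 against 1.36% of all genes, with 1 and 4 members at an unadjusted p under 0.05 (16.1% and 10.2% of all genes), 0 and 1 called by DESeq2 (Igfbp5, against 2.87% and 1.503% of all genes) and 0 by limma-voom. Igfbp5 stood there at 3972, 3265 and 3175 CPM on day 7 and at 2859.7, 2321 and 1884 on day 10, with no overlap and a log2 fold of -0.55 ± 0.14 (edgeR adjusted p 0.143).

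**Figure D5:**
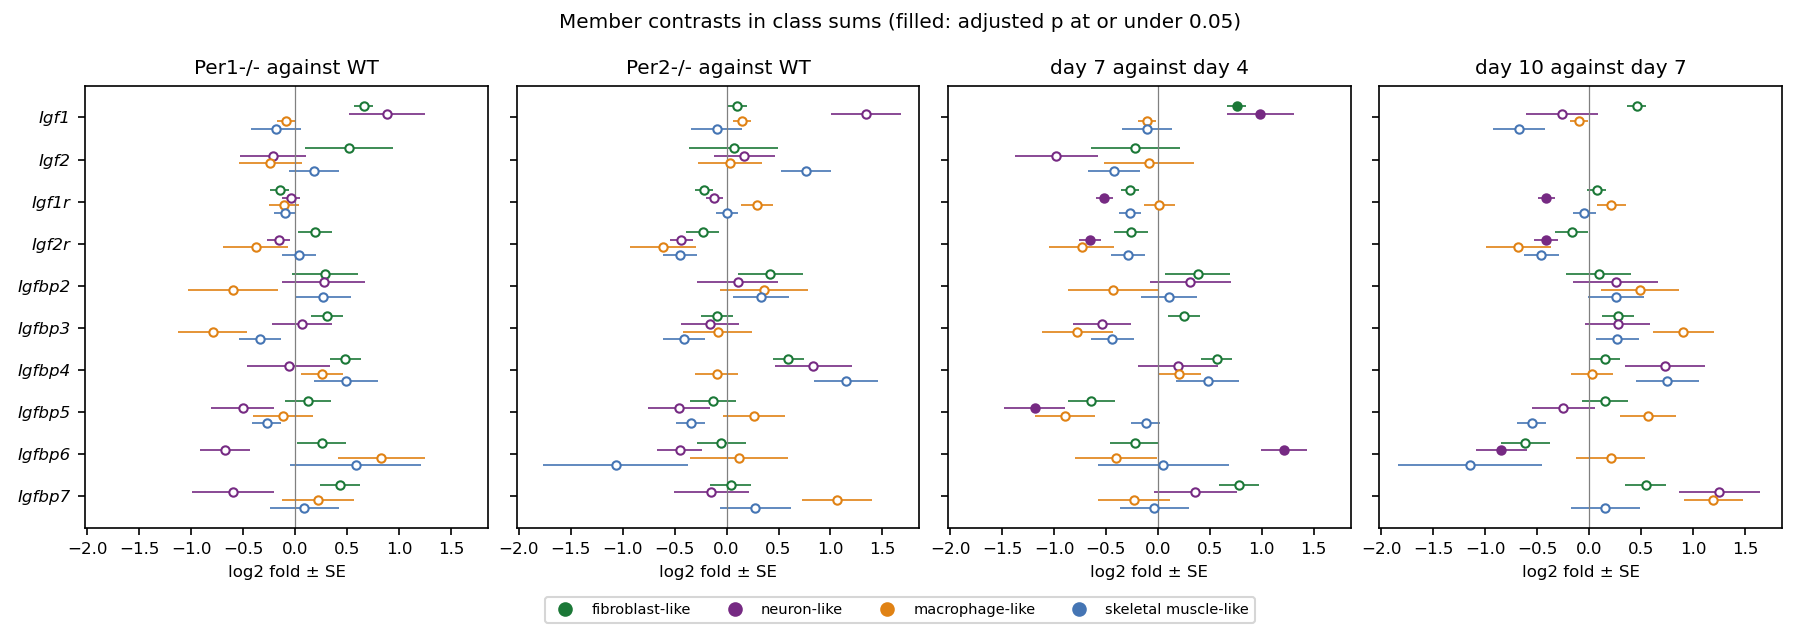
Log2 folds of the 10 IGF axis genes with their standard errors in the class sums of 4 classes, from edgeR's quasi-likelihood fit, for Per1-/- against WT, Per2-/- against WT, day 7 against day 4 and day 10 against day 7; filled points have an adjusted p at or under 0.05, and Igf2 is left out of the last panel. The genotype panels hold open points alone, and the filled points are Igf1 in fibroblast-like sums (0.76) and, in neuron-like sums, Igf1, Igf1r, Igf2r, Igfbp5 and Igfbp6 from day 4 to day 7 and Igf1r, Igf2r and Igfbp6 from day 7 to day 10.

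Whether a class differed from fibroblast-like cells in its response was tested with the interaction of class and contrast, with the library as a block. Between neuron-like and fibroblast-like cells, 1 of 10 members differed in the step from day 4 to day 7 (18% of all genes called, 8.18% higher in neuron-like cells): Igfbp6, by 1.49 ± 0.36 on the log2 scale (edgeR adjusted p 0.0211). In the step from day 7 to day 10, 1 of 9 differed (3.78% of all genes, 1.62% lower): Igf1r, by -0.47 ± 0.10 (edgeR adjusted p 0.0362). For Per1-/- against WT 0 of 10 differed against 0% of all genes, with 0 at an unadjusted p under 0.05 (6.10% of all genes) by edgeR, the only tool run for interactions. Between macrophage-like and fibroblast-like cells, Igf1 differed from day 4 to day 7, by -0.87 ± 0.11 (edgeR adjusted p 0.0299), 1 of 10 members against 0.326% of all genes (0.163% lower). There edgeR called 0 of 9 members from day 7 to day 10 against 0.0423% and 0 of 10 for Per1-/- against WT against 0%, with 1 and 2 at an unadjusted p under 0.05 (6.90% and 9.64% of all genes). The Igfbp6 call was lost without 1 of 3 libraries (WT day 4, WT day 7 or Per2-/- day 7, log2 difference 1.26, 1.74 and 0.99) and the Igf1r and Igf1 calls each in 7 of 9 cases, with log2 differences in those cases from -0.51 to -0.38 and from -0.96 to -0.76.

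Beyond the 10 members, 49 genes of the pathway in 5 lists were read in the same fits. Between genotypes edgeR called 0 of these genes in the 4 classes tested, of 41 to 47 tested in each, where 0% to 0.348% of all genes were called. In fibroblast-like sums from day 4 to day 7, 6 of 47 were called, all higher, among them Pik3r1, the regulatory subunit of PI3 kinase (log2 fold 0.89 ± 0.14, edgeR adjusted p 0.0218), the growth hormone receptor Ghr (0.48 ± 0.07, 0.0221) and the secreted protease Htra3 (1.397 ± 0.23, 0.0245), in a comparison in which 3.61% of all genes were called, and 0 of 47 from day 7 to day 10 against 1.25%. By list the 6 were 2 of 19 receptor signalling genes, 1 of 9 binding protein proteases and their inhibitors, 2 of 7 other ligands and binding proteins, 0 of 3 IGF2 mRNA-binding proteins and 1 of 9 genes of the imprinted network around Igf2.

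In neuron-like sums from day 4 to day 7, 19 of 45 pathway genes were called, 6 higher and 13 lower. The lowest adjusted p-values belonged to imprinted genes: Cdkn1c, a cyclin-dependent kinase inhibitor, fell (log2 fold -1.31 ± 0.11, edgeR adjusted p 2.41e-05), and Meg3, a maternally expressed long non-coding RNA (1.21 ± 0.14, 0.000199), and Peg3, a paternally expressed zinc finger gene (0.85 ± 0.12, 0.000417), rose. In the receptor signalling list 1 of 19 rose and 5 fell, with a list median of -0.07 against -0.00 over all genes. All 3 IGF2 mRNA-binding proteins, which bind the Igf2 transcript among others and are known from fetal cells, fell, with log2 folds of -1.41 ± 0.31 for Igf2bp1, -0.59 ± 0.13 for Igf2bp2 and -0.44 ± 0.10 for Igf2bp3 (edgeR adjusted p 0.00781, 0.00671 and 0.00748), a list singled out after its values were seen. None of the 3 was called in cluster 7 alone, where Cdkn1c (-0.67 ± 0.14, edgeR adjusted p 0.0246), Meg3 (0.89 ± 0.10, 0.00170) and Peg3 (0.42 ± 0.09, 0.0288) were called in the same direction. From day 7 to day 10, 4 of 45 were higher and 2 lower, led by Cdkn1c (-0.59 ± 0.11, edgeR adjusted p 0.00696), Igf2bp2 (-0.64 ± 0.13, 0.0120) and Ndn, an imprinted gene of neurons (0.40 ± 0.09, 0.0171). These shares stand against 23.7% and 11.9% of all genes in the same comparisons, in which the make-up of the class changed as described above. In cluster 16 alone, days 7 and 10, Igf2bp2 (-0.63 ± 0.13, edgeR adjusted p 0.0207) and Igf2bp1 (-1.25 ± 0.32, 0.0475) were called lower. Igf2bp3 was not called there, and 4.56% of all genes were.

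In skeletal muscle-like sums 2 of 44 pathway genes were called in each step, against 2.18% and 1.36% of all genes. Grb10, an adaptor that dampens signalling from the insulin and IGF1 receptors and is itself imprinted, fell from day 4 to day 7 (log2 fold -0.55 ± 0.10, edgeR adjusted p 0.0263) and from day 7 to day 10 (-0.59 ± 0.10, 0.0195). Plagl1, a zinc finger factor of the imprinted network, rose in the first step (1.16 ± 0.18, edgeR adjusted p 0.0116), and Dlk1, a paternally expressed Notch-like protein, in the second (1.09 ± 0.22, 0.0418). In macrophage-like sums edgeR called 0 of 41 pathway genes in both steps, against 0.671% and 1.29% of all genes.

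Across the 59 sums of a class and a library with at least 50 cells, the genes most like each member in log2(CPM + 1) were taken from 7433 candidates. The points share libraries, depth and clustering, so the correlations are descriptions. Igf1 followed Dse (Pearson r 0.926), Dab2 (0.911) and Clec2d (0.900). Igf2, over the 18 sums of day 10 and 6745 candidates, followed Nrk (0.968), H19 (0.965) and Agtr2 (0.950), so its imprinted neighbour H19 was among the 3 most similar genes. Igf1r followed Afap1 (0.973) and Zfp266 (0.965), and Igf2r Rhoj (0.875) and Qsox1 (0.854), the lowest top value of the 10 members. Among the binding proteins, Igfbp2 followed Fgfr2 (0.965), Igfbp3 the collagen chaperone Fkbp10 (0.968), Igfbp4 the scavenger receptor Colec12 (0.878), Igfbp5 Ift74 (0.958), Igfbp6 Gata6 (0.917) and Igfbp7 the basement membrane proteoglycan Hspg2 (0.964).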

How the data were processed

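The deposited files are 10x count matrices, in which the authors counted UMI per gene and cell with Cell Ranger. The submitters' processing notes name Cell Ranger 7.1 and mm10, and the file headers name 4.0.0 for days 4 and 7 and 6.0.0 for day 10. The cell tables used here are these counts as deposited, with no normalization.

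Barcodes under 3000 UMI or over 20% mitochondrial UMI were dropped. The cells of a library were ranked by Scrublet score (scanpy 1.11.5), and the highest were called doublets and removed, 7164 of 81999. The share removed was set in advance at 0.8% per 1000 barcodes of the library, whatever the scores. Clusters came from 2000 variable genes without the IGF axis and pathway genes, 30 principal components, 15 neighbours and Leiden resolution 1. A cluster took a class whose markers averaged at least 2-fold above the other cells, with at least 3 of them raised. Failing that, it was fibroblast-like if at least 10 fibroblast markers were each in at least 50% of its cells, their level was at least 33.3% of the highest cluster's and no other class's markers averaged 0.5 or more on the log2 scale. Other clusters, and those with over 50% doublets, were left unnamed. CPM are UMI per 1000000 UMI of a class in a library, over the 30406 shared identifiers. Sums were tested with edgeR 4.0.16 (R 4.3.3) by the quasi-likelihood test with genotype and day as terms, and DESeq2 1.42.0 and limma-voom 3.58.1 were alternatives, as were other filters, scalings, clusterings and each library left out. The fit was tested on simulated data: at a simulated log2 fold of 1 for Per1-/- against WT, it recovered 84.4% of changed genes in fibroblast-like and 66.3% in neuron-like sums, but 31.0% and 51.1% for the differences of neuron-like and macrophage-like from fibroblast-like sums. The simulated counts had the same dispersion for every gene and no change with day or class make-up. These shares therefore do not give the power of the tests on the real sums.

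The members, gene lists and markers were chosen with earlier results of these data known. All 10 members are described, with fold, error and adjusted p for those past the threshold and always for Igf2 between genotypes. Further members and IGF2 mRNA-binding proteins were given these values after they were seen. Up to 3 pathway genes with the lowest adjusted p were named per comparison, and for likeness up to 3 genes with the highest Pearson r in sums of at least 50 cells, among genes reaching 50 CPM in a sum. Clusters are given by number and 3 leading genes, of which 1 for cluster 1 is not reported here.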

Additional observations from a re-analysis of the deposited data

Results flagged for a closer look

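These members differed in their change over days between a class and fibroblast-like cells by a test of the difference itself, an interaction term in edgeR's quasi-likelihood fit. Igfbp6 changed more from day 4 to day 7 in neuron-like than in fibroblast-like sums, by 1.49 on the log2 scale (1.488 before rounding, edgeR adjusted p 0.0211). Neuron-like values were higher on day 7 in 3 of 3 genotypes, while cluster 16, with more Igfbp6 than cluster 7, grew from at most 4.74% to at least 50.2% of the class.

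Igf1r changed from day 7 to day 10 by -0.47 (-0.4689 before rounding) in neuron-like relative to fibroblast-like sums (edgeR adjusted p 0.0362). Fibroblast-like values were 93.1, 81.3 and 77.2 CPM on day 7 and 111, 83.8 and 76.2 on day 10 (WT, Per1-/- and Per2-/-), against falls in all 3 genotypes in neuron-like sums.

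Igf1 changed from day 4 to day 7 by -0.87 (-0.8736 before rounding) in macrophage-like relative to fibroblast-like sums (edgeR adjusted p 0.0299). Fibroblast-like values were higher on day 7 in 3 of 3 genotypes, and macrophage-like values lower in 3 of 3 without a called change.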

How the results depend on the processing

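Counts of members called kept within 1.5 times the reported count in 388 of the alternative fits and moved in 58. In most comparisons the reported count was 0, and a count that stayed at 0 was taken as kept. DESeq2 called 1 member in each genotype contrast of fibroblast-like sums (1.98%, 0.747% and 2.32% of all genes). There it called 4 from day 4 to day 7 (9.53%) and 1 from day 7 to day 10 (2.45%). In neuron-like sums DESeq2 called 3 members from day 4 to day 7, where it called 17.9% of all genes. In skeletal muscle-like sums it called 1 for Per2-/- against WT (0.926%) and 1 from day 7 to day 10 (1.503%). For the other settings below, clusters alone aside, shares of all genes called are not given. At Leiden resolution 2, fibroblast-like sums gave 0 from day 4 to day 7 and 1 from day 7 to day 10. With only the contrast's factor in the fit, fibroblast-like sums gave 0 from day 4 to day 7 and neuron-like sums 1 from day 7 to day 10, as did a stricter cell filter (5000 UMI, 10% mitochondrial). Without a filter on low counts, the difference between neuron-like and fibroblast-like sums from day 7 to day 10 gave 0. The stricter cells, a wider fibroblast class and clusters 1 (3 members), 7 (1) and 16 alone were chosen after seeing the data. Leaving out 1 library gave, in fibroblast-like sums, 0 to 1 for Per1-/- against WT, 0 to 2 for Per1-/- against Per2-/- and 0 to 2 from day 4 to day 7. In neuron-like sums it gave 0 to 1 for Per1-/- against Per2-/- and 0 to 4 from day 7 to day 10. In macrophage-like sums it gave 0 to 2 for Per2-/- against WT, 0 to 4 for Per1-/- against Per2-/- and 0 to 1 in each day step. The 2 (Igf2r and Igfbp7) and the 4 (Igf1r, Igfbp2, Igfbp5 and Igfbp7) both came without the Per2-/- day 4 library. In these cells Igfbp7 was within the background range, and Igfbp2 and Igfbp5 were slightly above it. No share of all genes called stands beside counts with 1 library left out. In skeletal muscle-like sums it gave 0 to 1 for Per2-/- against WT, Per1-/- against Per2-/- and day 4 to day 7. For differences from fibroblast-like sums it gave 0 to 1 (Per1-/- against WT), 0 to 4 (day 4 to day 7) and 0 to 1 (day 7 to day 10) in neuron-like, and 0 to 1 (day 4 to day 7) in macrophage-like sums. The sign of Igf2 between genotypes was not stable. Leaving out 1 library, its log2 fold ran from -0.023 to 0.86 (Per1-/- against WT), -0.51 to 0.51 (Per2-/- against WT) and -0.049 to 1.07 (Per1-/- against Per2-/-) in fibroblast-like, from -0.74 to 0.50, -0.25 to 0.94 and -0.79 to 0.054 in neuron-like sums, from -0.066 to 0.16 (Per2-/- against WT) in macrophage-like and from -0.077 to 0.48 (Per1-/- against WT) in skeletal muscle-like sums. For Per2-/- against WT it was -0.57 in fibroblast-like sums with only the contrast's factor, and in macrophage-like sums -1.25 at Leiden resolution 2 and -0.0069 with DESeq2. At Leiden resolution 2 it was 0.15 (Per1-/- against WT) and 0.12 (Per1-/- against Per2-/-) in neuron-like sums. Igfbp6 from day 4 to day 7 was -0.81 in cluster 7 alone. The causes were not tested. The reported fits already match genotypes within a day, and the labels give no replicate numbers to pair by. Few cells (182 neuron-like in WT day 10, 19 astrocyte-like in Per1-/- day 10, 15 to 112 mesothelial-like) limit the precision of those sums.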

Other observations

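Unnamed clusters held some of the highest levels of IGF axis genes. Cluster 6, of 5120 cells led by Ptgds, Foxd1 and Gjb2, had medians over 9 libraries of 349.7 CPM for Igf1, 1355 for Igfbp2 and 2012 for Igfbp5, and 1602 for Igf2 on day 10, while its Igfbp3 was at 56.7 CPM. Cluster 21, of 770 cells led by Rgs5, Gm15987 and Anxa8, had medians over 4 libraries of 2354 CPM for Igfbp5 (420 to 4360), 497 for Igf2r and 105 for Igfbp6. Cluster 9, led by Pcolce2, Mia and Msmp, had 1531 CPM of Igfbp4 (1339 to 1722 in 2 libraries), and 96.6% of its 4264 cells came from the Per2-/- day 10 library, so the cluster and that library cannot be told apart. All of these were read by the same sums as the named classes, and with no test.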
